A study of Mus musculus with 3 samples.

Results

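CLK (CLOCK) and BMAL1 binding was mapped by ChIP-seq at 6 genes that encode liver enzymes of amino acid breakdown and nitrogen disposal. These are the urea cycle genes Cps1, Ass1 and Arg1, the tyrosine aminotransferase gene Tat, the glycine N-methyltransferase gene Gnmt and the alanine-glyoxylate aminotransferase gene Agxt2. The genes were chosen by hand with their called peaks already known, so the presence of a peak at each of them is not a finding. All rows that the authors' table assigns to these symbols were taken, which gave 11 peaks of 2127, at 6 genes of 1886. Of these 11, 1 was a CLK:BMAL1 peak (a CLK peak that shares at least 1 bp with a BMAL1 peak), 8 were CLK only and 2 were BMAL1 only. Together they hold 9 peaks of the CLK list and 3 of the BMAL1 list.

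The chromatin came from livers of wild-type male C57BL/6 mice aged 3 to 6 months, which had lived under a 12 h light and 12 h dark schedule for 2 weeks or more and were killed at ZT8 (8 h after lights on). There were 3 libraries from a single liver extract: 1 with an antibody against CLK, 1 with an antibody against BMAL1, and 1 Input with no antibody. No value below has a replicate, no time point other than ZT8 was measured, and no difference between genes or antibodies was tested. The depth was 33057959 tags for CLK, 25217144 for BMAL1 and 18206506 for Input after removal of duplicates.

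CLK and BMAL1 form a heterodimer that binds e-box hexamers and drives rhythmic transcription. Hepatocytes break down surplus amino acids, and the nitrogen released is turned into urea by the urea cycle. Transcription of several of these enzymes responds to feeding, glucagon and glucocorticoids, and Tat is a classic glucocorticoid-induced gene of liver.

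Each peak is given below by its tags (ChIP reads in the peak), its fold enrichment over the local Input and its score, the MACS p-value as a negative log10 multiplied by 10. By score and tags, the data show 1 strong site, over the start of Tat, and 10 weaker ones. The calling cutoff lay at a score of 50. The CLK peak at the start of Tat had 231 tags and a score of 536.50, rank 5 of 759 CLK peaks. The other 8 CLK peaks of these genes scored between 55.32 and 119.65. By fold enrichment, however, the Agxt2 peak stood above the CLK peak at the start of Tat, at 11.22 against 7.76. Only the Agxt2 peak joined Tat at a score of at least 100, which made 2 of 9, against 12.4% of the whole CLK list. In the BMAL1 list the Tat peak alone reached that score, 1 of 3 against 14.8% of all BMAL1 peaks. The peak nearest to the cutoff was a CLK only peak in the body of Tat, at 55.32. Regions under the cutoff are not part of the peak lists, so none can be given from just outside it.

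Overlap between called peaks of the 2 factors was found only at the start of Tat. There 1 of 9 CLK peaks overlapped a BMAL1 peak, against 27.8% of all CLK peaks, and 1 of 3 BMAL1 peaks overlapped a CLK peak, against 13.4% of all BMAL1 peaks. These few peaks, with 5 of the 9 CLK peaks at Tat alone, cannot separate their shares from the background. Ass1 carried peaks of both factors at different places.

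Tat encodes the enzyme that starts tyrosine breakdown by moving its amino group to 2-oxoglutarate. It lies on the plus strand of chromosome 8, from 112514357 to 112523701 (mm9), and is 9345 bp long. CLK peaks were called at 5 places along it, spanning 10113 bp from just before the start site to just behind the 3′ end. They covered 42.0% of the transcribed region, against 18.9% for the single BMAL1 peak.

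The promoter site of Tat was called at nearly the same place in both lists. The CLK peak, on chromosome 8 from 112514229 to 112516170, was 1942 bp wide, the fifth widest of its list. The BMAL1 peak, from 112514222 to 112516118, was 1897 bp wide, rank 3 of 1578, and the overlap was 1890 bp. The summits did not coincide. The CLK summit was 46 bp behind the start site, in the 5′ UTR of exon 1, and the BMAL1 summit was 611 bp behind it, in an intron. The distance between them was 565 bp, whereas the median over 212 overlapping pairs was 21.0 bp, and 6 pairs, Tat included, were at least as far apart.

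The strength of the Tat promoter site is given for each list on its own, without a test between them. CLK had 231 tags and a fold enrichment of 7.76, with an FDR of 0%. BMAL1 had 124 tags, a fold enrichment of 4.63, a score of 116.35 and an FDR of 0.58%. Scaled to 1000000 tags of the library this was 6.99 for CLK (95% Clopper-Pearson interval 6.12 to 7.95) and 4.92 for BMAL1 (4.09 to 5.86), where the intervals cover counting error only. The antibodies differ, so these levels do not compare occupancy. Within its own list the CLK peak ranked 5 by score and 150 by fold enrichment, and the BMAL1 peak ranked 173 by score and 1542 of 1578 by fold enrichment.

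The sequence of this site is shown because it has the highest score of the 6 genes, without a perfect e-box. An e-box is the hexamer CACGTG, which reads the same on both strands, and it was absent within 100 bp of both Tat summits. In the lines that follow, capitals mark hexamers that match CACGTG with at most 1 mismatch. All sequences are from NCBIM37, the assembly of mm9, and are written 5′ to 3′ on the strand of the gene. The first is the part of the CLK peak in front of the annotated gene, chr8:112514229-112514336, and the second surrounds the BMAL1 summit, chr8:112514908-112515028.
Tat promoter: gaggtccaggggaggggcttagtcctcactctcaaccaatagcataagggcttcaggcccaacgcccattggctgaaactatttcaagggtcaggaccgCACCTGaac
Tat BMAL1 summit: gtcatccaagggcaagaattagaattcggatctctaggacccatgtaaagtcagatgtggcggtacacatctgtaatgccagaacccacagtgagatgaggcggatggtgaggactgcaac
The stretch in front of the gene held the hexamer CACCTG, 75 bp before the CLK summit. A nearer one, CTCGTG, lay 37 bp before the summit, behind the end of that stretch. In contrast, the window around the BMAL1 summit held no hexamer with so few mismatches.

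Behind the promoter, 4 CLK only peaks lay along the body of Tat, and no BMAL1 peak was called there. The first, from 112517622 to 112518410, had 44 tags, a fold enrichment of 4.08 and a score of 55.32, with its summit in a coding exon 3424 bp behind the start site. The second, from 112521369 to 112521849, had 38 tags, a fold enrichment of 5.18 and a score of 58.65, with its summit in an intron at 7226 bp. The third, from 112521911 to 112522755, had the highest score of the 4, 85.51, with 56 tags and a fold enrichment of 5.51. Its summit was in an intron at 7780 bp. Only 61 bp separated the second from the third, while the gaps on either side were 2958 and 1036 bp. The last, from 112523792 to 112524341, began 91 bp behind the end of the gene and had 38 tags, a fold enrichment of 5.96 and a score of 71.02.

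**Figure D1:**
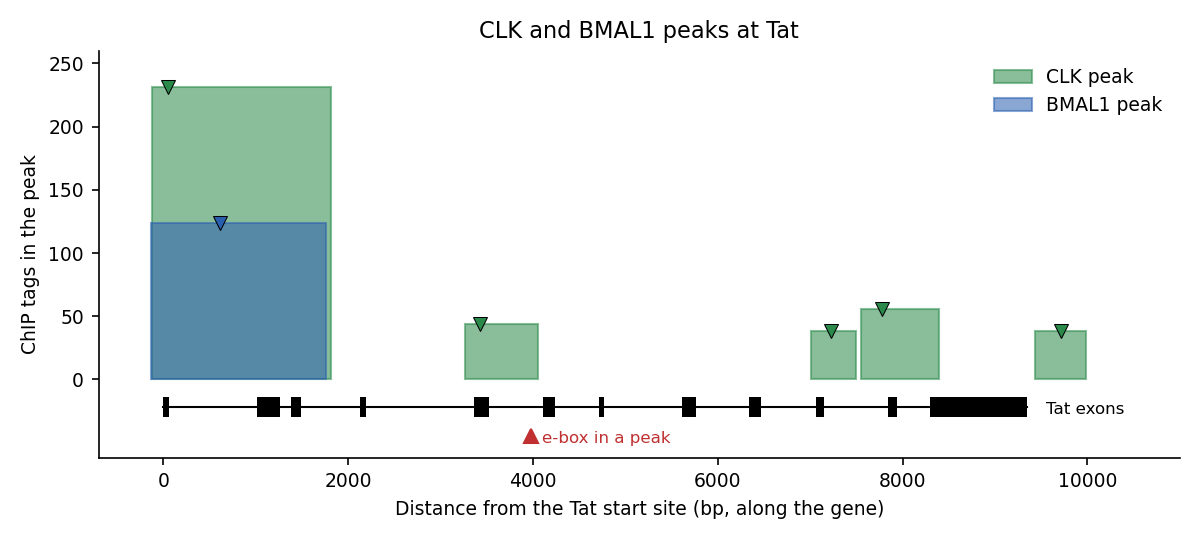
CLK peaks (green) and BMAL1 peaks (blue) at Tat by distance from its start site in bp (x axis), with the height giving the ChIP tags in the peak (y axis) and the inverted triangle its summit. Black boxes are exons and the red triangle is the e-box inside a peak. The promoter holds 231 CLK and 124 BMAL1 tags, and the 4 CLK only peaks behind it hold 38 to 56.

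The 4 peaks of the gene body and 3′ end held 176 tags together, against 231 at the promoter, which was 56.8% of the 407 tags in CLK peaks of Tat. The only perfect e-box inside any Tat peak was in the first of them, at 112518331 to 112518336, in an intron and 552.5 bp from the summit of that peak. It is shown with 30 bp on each side, chr8:112518301-112518366.
Tat intron e-box: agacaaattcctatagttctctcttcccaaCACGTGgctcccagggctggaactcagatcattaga
No other peak of either list lay within 20000 bp of the Tat start site.

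Few genes had so many CLK peaks. Of 686 genes with a CLK peak, 2 (0.292%) had at least 5, Tat and the albumin gene Alb, with 10 peaks over 17372 bp. Tat was chosen partly for this number, so it is given as a description. The genes nearest to Tat were found by summing the absolute differences in the number of CLK:BMAL1, CLK only and BMAL1 only peaks, over 1885 other genes. Errfi1, Pibf1 and an unnamed transcript, uc007ktq.1, were at a difference of 2, each with 3 CLK only peaks. Pck1, which encodes the gluconeogenic enzyme phosphoenolpyruvate carboxykinase, was at a difference of 3 with 2 CLK:BMAL1 and 2 CLK only peaks. In all, 30 genes shared a difference of 3, among which the summed CLK tags decided. The CLK peaks of Pck1 held 743 tags over 7703 bp, more than the 407 of Tat, with a highest CLK score of 665.61.

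Cps1 encodes the mitochondrial enzyme that commits ammonia to the urea cycle. It carried 1 CLK only peak, over its start site, on chromosome 1 from 67169444 to 67170028. The peak had 39 tags, a score of 85.71 and a fold enrichment of 4.67, and its summit was 83 bp in front of the start site. By score it was higher than 82.5% of the CLK list, and by fold enrichment it was higher than 7.38%. The nearest perfect e-box was centred at -3910.5 bp from the summit.

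Ass1 encodes argininosuccinate synthase, which joins citrulline and aspartate. It carried a BMAL1 only peak at its start site and a CLK only peak deep inside the gene. The BMAL1 peak, on chromosome 2 from 31325361 to 31326418, was 1058 bp wide and had 55 tags and a score of 63.68. Its fold enrichment of 3.78 ranked 1577 of 1578, although by tags it ranked 113. Its summit was 206 bp in front of the start site of the assigned transcript, in sequence that was 70.1% G and C, against a median of 51.7% over BMAL1 only peaks. A perfect e-box lay inside the peak at 31325754 to 31325759, 172.5 bp from the summit and 36 bp in front of that start site, within a UTR in the GENCODE annotation, where the gene begins earlier. Both are shown, the summit as chr2:31325524-31325664 and the e-box as chr2:31325742-31325771.
Ass1 BMAL1 summit: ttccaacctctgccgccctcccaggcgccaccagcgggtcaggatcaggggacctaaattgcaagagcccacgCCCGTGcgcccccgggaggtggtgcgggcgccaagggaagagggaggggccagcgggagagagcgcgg
Ass1 e-box: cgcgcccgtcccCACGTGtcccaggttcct
The CLK only peak of Ass1, from 31364610 to 31365093, had 30 tags, a fold enrichment of 4.71 and a score of 58.96. Its summit was in an intron, 39209 bp behind the annotated start of the gene, and no hexamer within a mismatch of the e-box lay within 100 bp of it. A match to the C/EBP letters TTGCNNAA was found 22 bp behind this summit, and 9.12% of all CLK only peaks hold such a match within 100 bp.

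Arg1 encodes arginase, which releases urea and ornithine. Its 1 peak was BMAL1 only, on chromosome 10 from 24668087 to 24668694, and had 34 tags, a fold enrichment of 6.84 and a score of 58.71. It lay between genes, with its summit at -21175 bp from the start site of Arg1. Arg1 was the nearest protein-coding start in the annotation, and the next, of Med23, was 78627 bp away. The assignment rests on that distance alone. The window around the summit, chr10:24668359-24668479, is shown because it held 3 hexamers within a mismatch of the e-box, the most of any summit here, and no perfect one.
Arg1 BMAL1 summit: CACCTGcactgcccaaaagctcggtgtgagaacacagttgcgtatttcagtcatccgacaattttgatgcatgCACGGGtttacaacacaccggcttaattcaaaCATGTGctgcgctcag

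Gnmt encodes the enzyme that methylates glycine and so controls the level of S-adenosylmethionine. It was the only one of the 6 genes with a perfect e-box within 100 bp of a summit. Its CLK only peak, on chromosome 17 from 46865507 to 46866256, was 750 bp wide and covered the start site. It had 72 tags, rank 37 of 759, a score of 73.46 and a fold enrichment of 3.73, rank 752. The summit was 93 bp behind the start site, in a coding exon that also lies within the annotated gene Gm16736, and the e-box, at 46866013 to 46866018, was 5.5 bp from it. The window, chr17:46865961-46866081, is written on the minus strand.
Gnmt CLK summit: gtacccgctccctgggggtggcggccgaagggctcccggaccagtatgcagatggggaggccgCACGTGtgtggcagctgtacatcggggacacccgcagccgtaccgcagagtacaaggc
No BMAL1 peak was called within this site or elsewhere at Gnmt. That only says that no region passed the cutoff in the BMAL1 library, which was the shallower of the pair.

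Agxt2 encodes a mitochondrial aminotransferase that acts on glyoxylate and on several other amino compounds. Its CLK only peak, on chromosome 15 from 10329509 to 10329827, differed in shape from the rest. It was the narrowest, at 319 bp, and had the fewest tags, 29, but the highest fold enrichment, 11.22, rank 23 of 759. Its score of 119.65 ranked 61, and its FDR was 6.56%. The summit was in an intron, 41376 bp behind the start site. It is shown, as chr15:10329650-10329770, since it is the site of highest enrichment.
Agxt2 CLK summit: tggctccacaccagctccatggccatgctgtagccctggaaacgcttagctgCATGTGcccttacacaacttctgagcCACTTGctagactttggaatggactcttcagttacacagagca
The hexamers CATGTG and CACTTG lay 8 bp before and 18 bp behind the summit, and the nearest perfect e-box was 15144.5 bp away.

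Peaks over the start site were present at 4 of the 6 genes. They were the CLK:BMAL1 peak of Tat, the CLK only peaks of Cps1 and Gnmt, and the BMAL1 only peak of Ass1. In the CLK only class this was 2 of 8 peaks, against 6.75% of the whole class. It was 1 of 2 in the BMAL1 only class, against 9.72%, and 1 of 1 in the CLK:BMAL1 class, against 21.8%. These peaks are too few to separate their shares from the background, and 4 of the 8 CLK only peaks were at Tat. The summits at Cps1 and Ass1 were in front of the start site, at -83 and -206 bp, and those at Gnmt and Tat were behind it.

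**Figure D2:**
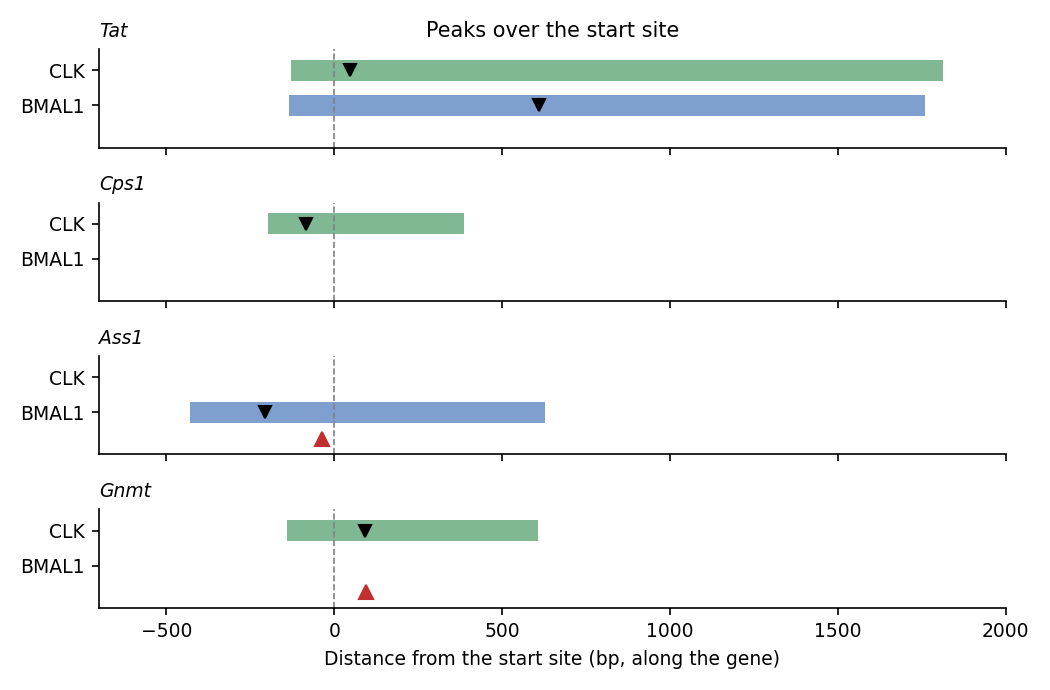
Extent of the peaks that cover the start site of Tat, Cps1, Ass1 and Gnmt, by distance from the start site in bp along the gene, with CLK in green and BMAL1 in blue. Black triangles are summits and red triangles perfect e-boxes inside the peak. Summits lie from 206 bp in front of the start site to 611 bp behind it, and of these peaks the e-box is close to the summit only at Gnmt.

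Perfect e-boxes near these summits were counted beside the share of each class. Within 100 bp they were found in 1 of 8 CLK only peaks, against 10.4% of all CLK only peaks. None of the 2 BMAL1 only peaks had one, against 22.0% of that class, nor did the 1 CLK:BMAL1 peak at its CLK summit, against 59.2%. So few peaks cannot separate their share from the background. Hexamers with at most 1 mismatch were present in 9 of the 11 windows, but such hexamers are common, at 62.2% of CLK only, 70.3% of BMAL1 only and 98.1% of CLK:BMAL1 peaks. In the same windows, on both strands, there was no D-box (TTATGTAA), no FOXA site (TGTTTAC), no HNF4A site (CAAAGTCCA), no cAMP response element (TGACGTCA) and no palindromic glucocorticoid response element. Over all 2127 peaks these letters occur in 1.88%, 3.24%, 0.658%, 0.752% and 0% of windows. For 11 independent windows, 0 matches would allow a share of up to 27.3% (3 of 11, an approximate 95% bound). These windows are not independent, since 5 lie at Tat and the genes were chosen with their peaks known. The missing matches say only that these letters are not in these windows.

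Most of these peaks were broad and rich in tags but modestly enriched. Of the 9 CLK peaks, 5 were at Tat, so they are not 9 separate loci. All 9 had more tags than the list median of 23.0, and 8 were wider than its median of 390 bp. In contrast, 7 of the 9 had a fold enrichment below the list median of 6.35, and their own median was 5.18. The exceptions were the Tat promoter and Agxt2. In the BMAL1 list Tat (4.63) and Ass1 (3.78) were below the median of 6.79, and Arg1 (6.84) was near it. All these measures come from the peak calls that chose the members and are therefore given without a test.

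**Figure D3:**
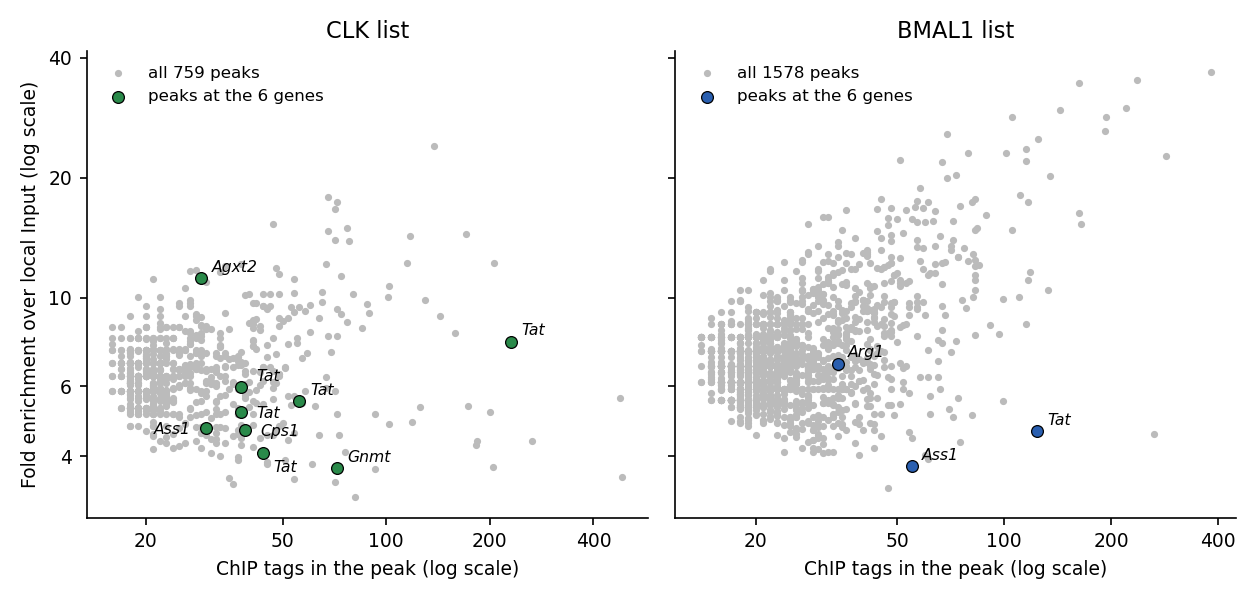
ChIP tags in the peak (x axis, log scale) against fold enrichment over local Input (y axis, log scale) for all CLK peaks (left, 759) and all BMAL1 peaks (right, 1578), with the 9 and 3 peaks of the 6 genes outlined and named. Gnmt has a fold of 3.73 and Ass1 one of 3.78 in the BMAL1 list, both among the lowest of their lists, and Agxt2, at 11.22, is the highest of the 12.

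Base composition also varied among the sites. G and C made up 70.1% of the 201 bp around the Ass1 promoter summit and 68.2% at Gnmt. At the other 10 summits the share was 45.3% to 52.7%, where the medians were 51.2% for CLK only and 51.7% for BMAL1 only peaks. The lowest were Arg1 and Agxt2, both at 45.3%, the Tat summit at 7780 bp (46.8%) and Cps1 (47.8%), all under the lower quartile of their class, which was 48.3% for CLK only and 48.8% for BMAL1 only peaks. The CLK:BMAL1 class had a median of 58.2%, against 52.2% at the Tat CLK summit.

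The wider pathway was read from a list of 76 genes of amino acid metabolism and the urea cycle, all found in the annotation. Peaks were assigned to 9 of the 70 listed genes besides the 6 members, or 12.9%, against 6.70% of 22238 protein-coding genes. A CLK peak was present at 5 (7.14%, against 2.41%) and a BMAL1 peak at 7 of the 70, against 5.22%. These shares are descriptions, since the list was written with results of these data known. The background was every protein-coding gene of the annotation, whether or not it is expressed in liver. In the urea cycle group, the remaining 5 genes comprised Slc25a13, with a BMAL1 only peak, and Otc, Asl, Nags and Slc25a15, with none. No peak was assigned to the listed genes of glutamine and glutamate (6 genes), serine and threonine (6), tryptophan (7), histidine (4) or cysteine and taurine (2) metabolism. With groups this small and a share of 6.70% over all protein-coding genes, the genes without a peak cannot be told from the background.

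**Figure D4:**
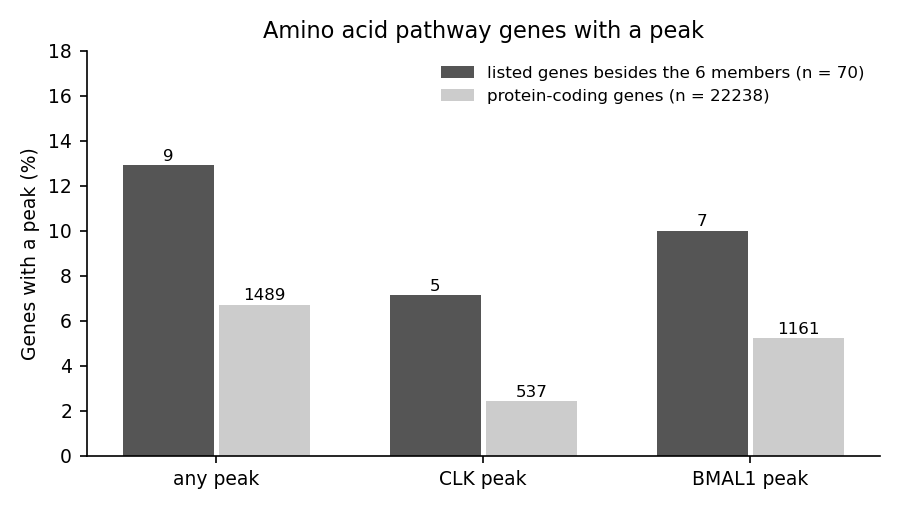
Share of genes with a peak of any class, a CLK peak or a BMAL1 peak (y axis, percent of genes) among 70 amino acid pathway genes besides the 6 members (dark) and all 22238 protein-coding genes (light), with the number of genes above each bar. The listed genes have the higher share in each pair, 12.9% against 6.70% for any peak, and no test was made.

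Shared sites of the pathway lay at Ahcy and Bcat2. Ahcy, whose product clears S-adenosylhomocysteine, the product of the Gnmt reaction, had a site with its summit at -6842 bp from its start, with a fold enrichment of 6.19 for CLK and 8.65 for BMAL1. Bcat2, a branched chain aminotransferase gene, had a site 3789 bp behind its start with 2 e-boxes. The fold enrichment there was 6.12 for CLK and 13.05 for BMAL1. The CLK summit of this site lay in an exon, within both Bcat2 and the annotated gene 0610005C13Rik. At Ahcy and Bcat2 the BMAL1 fold was the higher, whereas at Tat the CLK fold was. The antibodies differ, so these folds do not compare occupancy and show no preference for a factor. Over all peaks the median fold was also higher for BMAL1, at 6.79, than for CLK, at 6.35.

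Of the BMAL1 only sites of the pathway, the highest score was at the alanine aminotransferase gene Gpt. This peak, in a coding exon, had 71 tags, a score of 144.34, a fold enrichment of 13.49 and an e-box near its summit. The related gene Gpt2 had 2 BMAL1 only peaks, at -4563 and -3772 bp from the start, each with a fold enrichment of 7.99. Shmt1 and Slc25a13 had BMAL1 only peaks over their start sites, with scores of 61.13 and 54.08 and an e-box near both summits. CLK only peaks were present at the betaine-homocysteine methyltransferase gene Bhmt (score 77.81, 289 bp behind the start), at the leucine breakdown gene Ivd (50.18, over the start) and at Sardh (50.99, over the start, with an e-box near its summit). Sardh, which encodes the enzyme that reconverts the sarcosine made by Gnmt, also had a BMAL1 only peak at -14372 bp from its start, with a score of 66.70. No e-box lay near the summit of this Sardh peak, of either Gpt2 peak, or of the CLK peaks at Ahcy, Bhmt and Ivd. Whole-class shares with an e-box within 100 bp of the summit were 59.2% (CLK:BMAL1), 22.0% (BMAL1 only) and 10.4% (CLK only). Pathway peaks are too few to separate their share from these.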

How the data were processed

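CLK, BMAL1 and Input libraries (1 each, 15 PCR cycles, 36 nt reads) were aligned by the authors to mm9 with bowtie, keeping reads with 1 position. CASAVA 1.6 is named in the submitters' processing notes. MACS called peaks in each ChIP library against the Input (p-value cutoff 1e-05, with a band width of 80 and a model fold of 5). Per the file headers, the deposited values are the count of tags in a peak, a score of 10 times the negative log10 p-value, the fold enrichment as a ratio to the local Input, and the FDR in percent. The authors' table assigns each peak to the gene that contains it, or else to the nearest start site.

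All 2127 rows matched a deposited peak exactly. Summits were placed at the start of the peak plus the listed offset minus 1. Distances to start sites were recomputed from the summits, since the sign in the table does not follow the strand. Rows without a symbol kept their transcript identifier. Features came from GENCODE M1 (Python 3.11.15, pysam 0.24.0). Motifs were searched on both strands, and functions were checked on simulated data. Intervals cover counting error only, and PCR reads are not independent molecules.

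Named genes are the 6 members, the other listed pathway genes with a peak, and the 5 genes nearest to Tat in peak numbers, of which 1 is not reported here. Alb, Med23, Gm16736, 0610005C13Rik and the urea cycle genes without a peak were named after their values were seen. Members and lists were chosen with earlier results of these data known. No tests were made, as each group has 1 library. Alternatives covered a minimum score of 100, a maximum FDR of 5%, other overlap rules, ranks and e-box windows, and the distance to the gene.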

Additional observations from a re-analysis of the deposited data

How the results depend on the processing

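A stricter cutoff removed most of these sites, as it did most peaks of both whole lists. A score of at least 100 was reached by 12.4% of all CLK and 14.8% of all BMAL1 peaks. With a score of at least 100, 2 of the 11 peaks were left (Tat promoter and Agxt2), 1 of the 5 at Tat, and 3 of the 15 pathway genes, members included, where shared sites counted by their CLK score. By the score of either list, an alternative chosen after seeing the data, it was 5 of the 15. For these gene counts no share over all genes was computed. With an FDR of at most 5%, 4 of the 11 were left (the Tat promoter, the last Tat peak and both Ass1 peaks). Over the whole lists the median FDR was 5.27% for CLK, with a lower quartile of 5.05%, and 5.81% for BMAL1. Only the Tat promoter passed both cutoffs, and Agxt2, at an FDR of 6.56%, was lost by the second. The measure of strength decided the rank. The median member peak stood at percentile 75.8 of the CLK list by score, 79.1 by tags and 14.4 by fold enrichment, and at 58.0, 92.7 and 2.28 of the BMAL1 list. Of the CLK peaks in this median, 5 were at Tat. An e-box was found in 3 peaks when searched anywhere in the peak and in 9 when 1 mismatch was allowed, in place of 1. For the search of whole peaks no share over all peaks was computed, and most of these peaks were wider than their list median. The remaining 5 of 16 alternative values were within 1.5 times the reported count. No paired analysis was possible because each group has 1 library and no test was made. The lack of replicates and of other time points limits every value here.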
